A study of Homo sapiens with 6 samples.

Results

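The 10 genes described here encode the 5 NF-kB subunits (NFKB1, NFKB2, REL, RELA and RELB) and 5 inhibitors of the pathway (NFKBIA, NFKBIB, NFKBIE, BCL3 and TNFAIP3). They were chosen by name, with earlier results of these data known. Each was matched through its Ensembl identifier to 1 of the 78932 rows of the count table, and all 10 had enough reads to be among the 18040 genes tested. The libraries were made from poly(A)-enriched RNA of HCC1937, an established line of triple negative breast cancer cells that carries a BRCA1 mutation. In 3 libraries the cells had been given 8 nM docetaxel, a drug of the taxane class that stabilises microtubules and so arrests dividing cells, for 24 h, and 3 libraries came from control cells collected at the same time point. No genotype, vehicle or other agent is named for either group, and all libraries come from 1 line. The labels call the replicates biological but name no separate cultures or days, and every p-value here rests only on how far these libraries differ, which may be technical. Library totals ran from 38622062 to 41675186 counts. Of 8 epithelial markers, KRT8, KRT18, KRT7 and CLDN4 averaged at least 1 CPM (counts per 1000000 counts of the library). In contrast, EPCAM had 16 reads in all 6 libraries together, KRT19 had 25, CDH1 164 and ESRP1 4. The leukocyte marker PTPRC had 1 read in all. The summed level of 5 immune markers was 1.78 to 2.63 CPM in control and 2.77 to 4.19 CPM with docetaxel, most of it from CD14. The sum of 4 fibroblast markers was 140 to 147 CPM in control and 142 to 148 CPM with docetaxel, most of it from COL1A1. PDGFRB averaged 4.57 CPM, COL3A1 0.16 and DCN 0.12. The sum of 3 endothelial markers was 2.05 to 2.95 CPM in control and 2.77 to 3.50 CPM with docetaxel. The part of these markers in the results below was not tested.

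NF-kB is a family of dimeric transcription factors whose subunits share a Rel homology domain. In the canonical pathway, dimers such as RELA with the p50 product of NFKB1 are held in the cytoplasm by IκB proteins, until the IKK kinase complex marks the IκB for degradation. In the non-canonical pathway, the kinase NIK drives processing of the NFKB2 precursor to p52, which pairs with RELB. Several inhibitors and subunits are themselves NF-kB target genes, so that the pathway restrains or amplifies its own activity, and in breast epithelial tumours it is known for its role in survival and inflammatory gene expression.

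With docetaxel, 4 of the 10 genes rose and 0 fell. NFKB2 rose 1.20-fold, RELB 1.27-fold, RELA 1.13-fold and NFKBIB 1.14-fold, by edgeR's quasi-likelihood test at an adjusted p under 0.05 over all genes tested. The other 6, among them NFKB1 and the rapid feedback genes NFKBIA and TNFAIP3, did not pass. The background was high, since 9.14% of all tested genes were called higher and 7.82% lower. NFKBIA was the 1 gene that edgeR placed lower at 0.05 before adjustment. DESeq2 called 3 of the 10 higher and 0 lower (8.12% and 8.25% of all genes), and limma-voom also called 3 and 0 (8.80% and 7.49%). When the libraries were scaled by their totals alone, edgeR called 2 higher and 0 lower (6.08% and 10.3% of all genes). The number of rises was 2 without control replicate 1, control replicate 3 or docetaxel replicate 1, and 1 without control replicate 2 or docetaxel replicate 2. The genes that rose had transcripts of 57.1% to 65.4% GC content. BCL3, with the highest GC content of the 10 at 67.4%, and NFKBIE at 61.0% did not pass. Over tested genes, the median log2 ratio, docetaxel to control, ran from -0.19 in the lowest of 5 equal GC bins to 0.18 in the highest. With offsets for GC content and gene length 0 of the 10 were called higher, 1 of them (NFKB2) being higher at 0.05 before adjustment, and 2 were called lower, BCL3 and NFKBIA, where 2.31% of all tested genes were called higher and 1.81% lower. In RNA from whole cultures, a change in the share of cells that express a gene cannot be told apart from a change in RNA per cell.

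NF-kB dimers bind kappaB sites in DNA, and the promoter matches to this motif are shown here because genes that passed the test (NFKB2, NFKBIB) and genes that did not both carry them. RefSeq promoter windows (GRCh38.p14) were matched for 8 of the 10 genes, and RELB and NFKBIE were not matched. The kappaB consensus, a motif of 10 bases, was searched on both strands in the 250 bases before each start, with overlapping matches kept. It occurred in 7 of the 13 windows of these genes, belonging to 6 of the 8 genes, and in 9.96% of all 35116 windows, or 11.8% of all 27305 genes with a window. NFKB1, NFKB2, REL, NFKBIA, NFKBIB and TNFAIP3 had a match, and RELA and BCL3 had none in these windows. The capitals below mark the matched bases, each line reads 5′ to 3′ on the strand of the gene, and a match is a description of the letters only.
NFKB1, chr4:102501300-102501329, plus strand: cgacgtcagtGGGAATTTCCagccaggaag
NFKB2, chr10:102394462-102394491, plus strand: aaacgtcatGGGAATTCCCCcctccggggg
NFKB2, chr10:102395674-102395703, plus strand: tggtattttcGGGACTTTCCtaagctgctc
REL, chr2:60881518-60881547, plus strand: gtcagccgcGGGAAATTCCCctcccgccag
NFKBIB, chr19:38899932-38899961, plus strand: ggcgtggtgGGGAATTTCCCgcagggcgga
TNFAIP3, chr6:137867188-137867217, plus strand: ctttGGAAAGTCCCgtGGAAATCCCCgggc
NFKBIA, chr14:35404750-35404869, minus strand: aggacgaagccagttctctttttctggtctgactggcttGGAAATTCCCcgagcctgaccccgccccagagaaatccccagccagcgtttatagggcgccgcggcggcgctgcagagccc
The NFKBIA line gives the 120 bases before its start. NFKB2 has 3 windows, for starts at 102394110, 102394578 and 102395705, and its matches lay before the 2 downstream starts. Not all stretches of NFKB2 with a match are printed. Those at chr10:102394490-102394519 and chr10:102395519-102395548 were left out. TNFAIP3 had 2 matches side by side, at 67 to 46 bases before its start. The matches of NFKB2, REL, NFKBIB and TNFAIP3 lie inside the GENCODE 29 gene spans given below, which begin further upstream.

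NFKB2, the precursor of p52 in the non-canonical pathway (ENSG00000077150, GRCh38 chromosome 10, 102394110 to 102402529, plus strand), showed the smallest p of the 10. Its level was 137, 126 and 130.0 CPM in control replicates 1 to 3, and 158, 156 and 155 CPM in docetaxel replicates 1 to 3, where CPM are scaled by edgeR's TMM factors. All docetaxel libraries lay above all control libraries. Its log2 ratio of docetaxel to control was 0.26 (SE 0.04, 95% confidence interval 0.17 to 0.35, adjusted p = 0.000135 by edgeR). NFKB2 kept this call when any 1 library was left out, with an adjusted p of 0.000395 to 0.0035 by edgeR. With GC and length offsets its log2 ratio was 0.08 and the call was lost (edgeR adjusted p = 0.23).

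RELB, the partner of p52 (ENSG00000104856, chromosome 19, 45001430 to 45038198, plus strand), was less abundant. It stood at 13.3, 12.8 and 14.9 CPM in control replicates 1 to 3 and at 17.7, 18.0 and 16.2 CPM in docetaxel replicates 1 to 3. The groups did not overlap, and the gap between the highest control and the lowest docetaxel library was narrow. The log2 ratio of RELB was 0.34 (SE 0.10, adjusted p = 0.013 by edgeR), the largest rise among the 10 genes. The call was lost without control replicate 1 (edgeR adjusted p = 0.052), control replicate 2 (0.081) or docetaxel replicate 2 (0.077), and with the offsets the log2 ratio was 0.13 (0.53).

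RELA encodes p65, the main activating subunit of the canonical pathway (ENSG00000173039, chromosome 11, 65653596 to 65663094, minus strand). It had 54.0, 55.0 and 56.4 CPM in control replicates 1 to 3, and 66.0, 62.7 and 58.5 CPM in docetaxel replicates 1 to 3. Every docetaxel library was higher than every control library, docetaxel replicate 3 by the least. This gave a log2 ratio of 0.18 (SE 0.06, adjusted p = 0.029 by edgeR). Only the fit without docetaxel replicate 3 kept the call among those that left out 1 library (edgeR adjusted p = 0.028). Without control replicate 1, 2 or 3 the adjusted p was 0.11, 0.075 or 0.054, and without docetaxel replicate 1 or 2 it was 0.23 or 0.11. With the offsets the log2 ratio was 0.06 (edgeR adjusted p = 0.71).

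NFKB1, the precursor of p50 (ENSG00000109320, chromosome 4, 102501329 to 102617302, plus strand), was measured at 21.1, 15.4 and 20.0 CPM in control and 19.0, 19.4 and 19.6 CPM in docetaxel replicates 1 to 3. All docetaxel values fell inside the control range, which control replicate 2 widened at its low end. NFKB1 had a log2 ratio of 0.04 (adjusted p = 0.85 by edgeR), with a 95% confidence interval of -0.16 to 0.24, or 0.895-fold to 1.18-fold, and without control replicate 2 it was -0.09. REL, which encodes c-Rel and is best known from lymphoid cells (ENSG00000162924, chromosome 2, 60881521 to 60931610, plus strand), had the lowest level of the 10. It averaged 1.37 CPM in control and 1.14 CPM in docetaxel libraries. Control replicates 1 to 3 held 67, 71 and 31 of its reads and docetaxel replicates 1 to 3 held 42, 45 and 44. Control replicate 3 was the lowest library and the other control libraries the highest, so the groups overlapped. Its log2 ratio was -0.27 (adjusted p = 0.67 by edgeR), and it was -0.09 without control replicate 1, -0.10 without control replicate 2 and -0.56 without control replicate 3. The interval, from -0.94 to 0.40 on the log2 scale, was the widest of the 10 and holds a rise of the size seen in RELB. A noncoding gene on the same strand, AC010733.2, overlaps 5702 bases of REL in GENCODE 29 and was listed with 0 reads, and how reads in the shared part were assigned is not given in the sources used here.

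**Figure D1:**
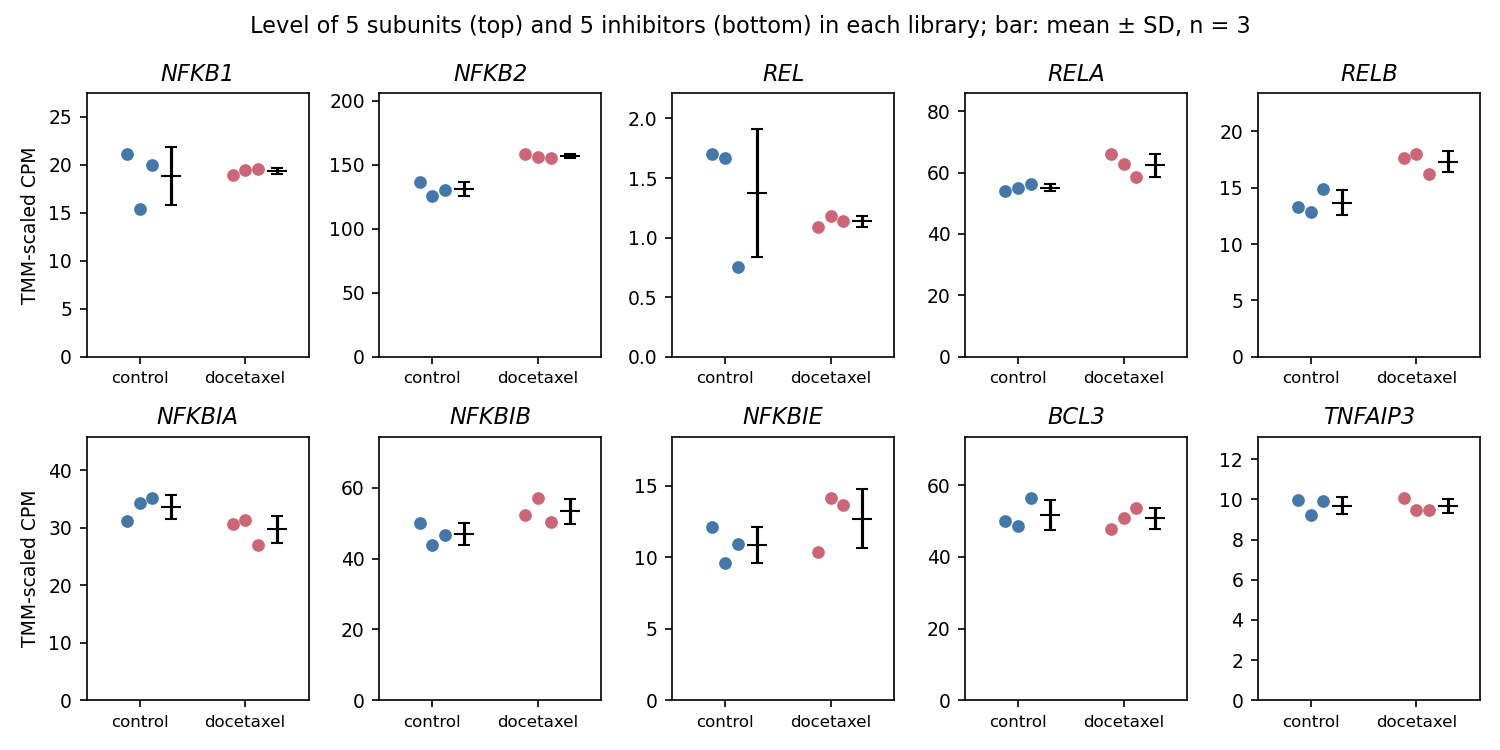
TMM-scaled CPM (vertical axes, each from 0) of the 5 subunits (top row) and 5 inhibitors (bottom row) in the 3 control libraries (blue) and the 3 docetaxel libraries (red), with the mean and SD as bars (n = 3). NFKB2, RELA, RELB and NFKBIB have docetaxel points all above the control points, and in the other 6 genes the groups overlap.

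The docetaxel libraries all lay above the control libraries in 4 of the 10 genes, the 4 that were called, and all below in 0. Among all tested genes this was so for 17.0% and 15.0%.

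The IκB proteins bind NF-kB dimers through ankyrin repeats. NFKBIA encodes IκBα, which is degraded on stimulation and made again as an early NF-kB target (ENSG00000100906, chromosome 14, 35401511 to 35404749, minus strand). It had 31.2, 34.2 and 35.2 CPM in control replicates 1 to 3 and 30.7, 31.4 and 27.0 CPM in docetaxel replicates 1 to 3. The ranges overlapped by a small margin, with docetaxel replicate 3 the lowest library. The log2 ratio was -0.18 with a 95% confidence interval of -0.33 to -0.02, and it missed the threshold over all genes (edgeR adjusted p = 0.11). With GC and length offsets it was -0.26 ± 0.07 (SE) and passed (edgeR adjusted p = 0.031). That call was lost without control replicate 2 (0.19), control replicate 3 (0.17) or docetaxel replicate 3 (0.25), all by edgeR with offsets.

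NFKBIB encodes IκBβ, a slower acting relative (ENSG00000104825, chromosome 19, 38899700 to 38908893, plus strand). The 3 control libraries had 50.1, 43.9 and 46.6 CPM and the 3 docetaxel libraries 52.4, 57.2 and 50.4 CPM. The lowest docetaxel value and the highest control value nearly met. NFKBIB had a log2 ratio of 0.19 (SE 0.06, adjusted p = 0.040 by edgeR), the weakest of the 4 calls, and it was lost in 10 of 14 alternative fits. By edgeR the adjusted p was 0.21 without control replicate 2, 0.11 without control replicate 3, 0.078 without docetaxel replicate 1 and 0.29 without docetaxel replicate 2. With the offsets the log2 ratio was 0.02. NFKBIB shares 163 bases with SIRT2 on the opposite strand, where reads cannot be assigned without strand, and the strand setting is not given in the sources used here.

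NFKBIE encodes IκBε, another IκB induced by NF-kB (ENSG00000146232, chromosome 6, 44258166 to 44265788, minus strand). Its values were 12.1, 9.58 and 10.9 CPM in control and 10.3, 14.2 and 13.6 CPM in docetaxel replicates 1 to 3. Docetaxel replicate 1 sat among the control libraries and the other two above them. Its log2 ratio of 0.23 (SE 0.12) did not pass (edgeR adjusted p = 0.22), although it was larger in size than that of RELA, whose libraries were closer together.

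BCL3 is a nuclear IκB protein that binds p50 or p52 dimers on DNA and can act as a coactivator (ENSG00000069399, chromosome 19, 44747705 to 44760044, plus strand). It had 50.1, 48.7 and 56.5 CPM in control and 47.6, 50.9 and 53.6 CPM in docetaxel replicates 1 to 3. The groups overlapped over most of their range, and the log2 ratio was -0.03 (SE 0.06, adjusted p = 0.83 by edgeR). BCL3 has the highest GC content of the 10, 67.4%, and with GC and length offsets its log2 ratio became -0.25 (SE 0.06, adjusted p = 0.0091 by edgeR). That call was lost without control replicate 2 (edgeR adjusted p = 0.065) or control replicate 3 (0.12).

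TNFAIP3 encodes A20, a ubiquitin-editing enzyme that shuts off signalling upstream of IKK and is itself a rapid NF-kB target (ENSG00000118503, chromosome 6, 137867188 to 137883312, plus strand). It was at 9.97, 9.21 and 9.92 CPM in control and 10.1, 9.50 and 9.48 CPM in docetaxel replicates 1 to 3. The groups were intermixed. Its log2 ratio was -0.0011 (adjusted p = 0.997 by edgeR), with a 95% confidence interval of -0.24 to 0.23 that leaves room for changes of 0.849-fold to 1.18-fold, and its sign depended on the library left out. An antisense gene, AL357060.1, with 400 reads against 2310 of TNFAIP3 overlaps 1046 of its bases.

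**Figure D2:**
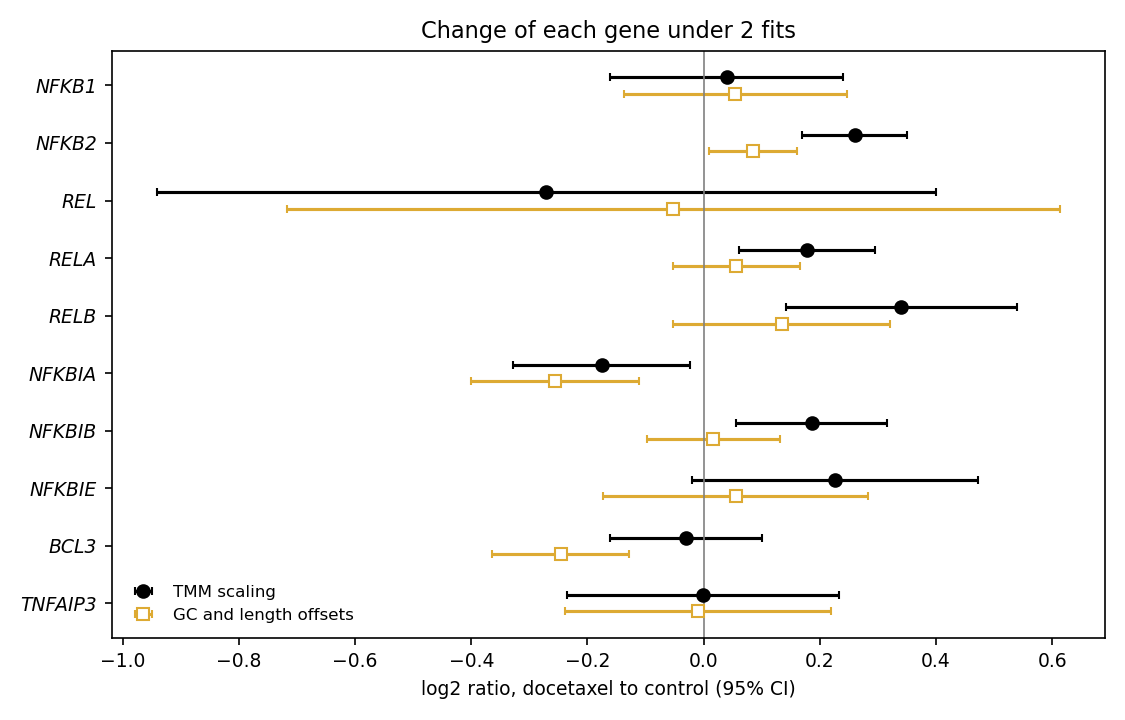
Log2 ratio of each gene, docetaxel against control (horizontal axis), with 95% confidence intervals, from the fit with TMM scaling (black circles) and from the fit with GC and length offsets (open squares). NFKB2, RELA, RELB and NFKBIB move toward 0 with the offsets (NFKB2 from 0.26 to 0.08), while BCL3 moves from -0.03 to -0.25 and NFKBIA from -0.18 to -0.26.

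The GC content of the longest transcript ran from 38.7% in REL to 67.4% in BCL3, and 5 of the 10 genes, NFKB2, RELB, NFKBIB, NFKBIE and BCL3, belonged to the highest of 5 equal bins of tested genes by GC content (58.3% and above). In that bin the median log2 ratio was 0.18, and 31.6% of its genes were called higher and 0.122% lower. NFKB2 and RELB lay above that median at 0.26 and 0.34, NFKBIB near it at 0.19, and BCL3 far under it at -0.03. RELA and NFKBIA, at 57.1% and 53.1%, belonged to the next bin, where the median was 0.10 and 13.6% were called higher. NFKBIA was on the other side of 0 from that median. NFKB1 and TNFAIP3 had 50.1% and 49.5% and belonged to the middle bin, whose median was 0.01. REL, in the bin with the lowest GC content, had a log2 ratio of -0.27 beside a median of -0.19. As a deviation from the mean of all 6 libraries, the median log2 CPM of the highest bin was -0.14 to -0.05 in the control libraries and 0.08 to 0.10 in the docetaxel libraries. The offsets remove whatever follows GC content and length, whether its source is the drug or the library preparation, and these cannot be told apart in this design.

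**Figure D3:**
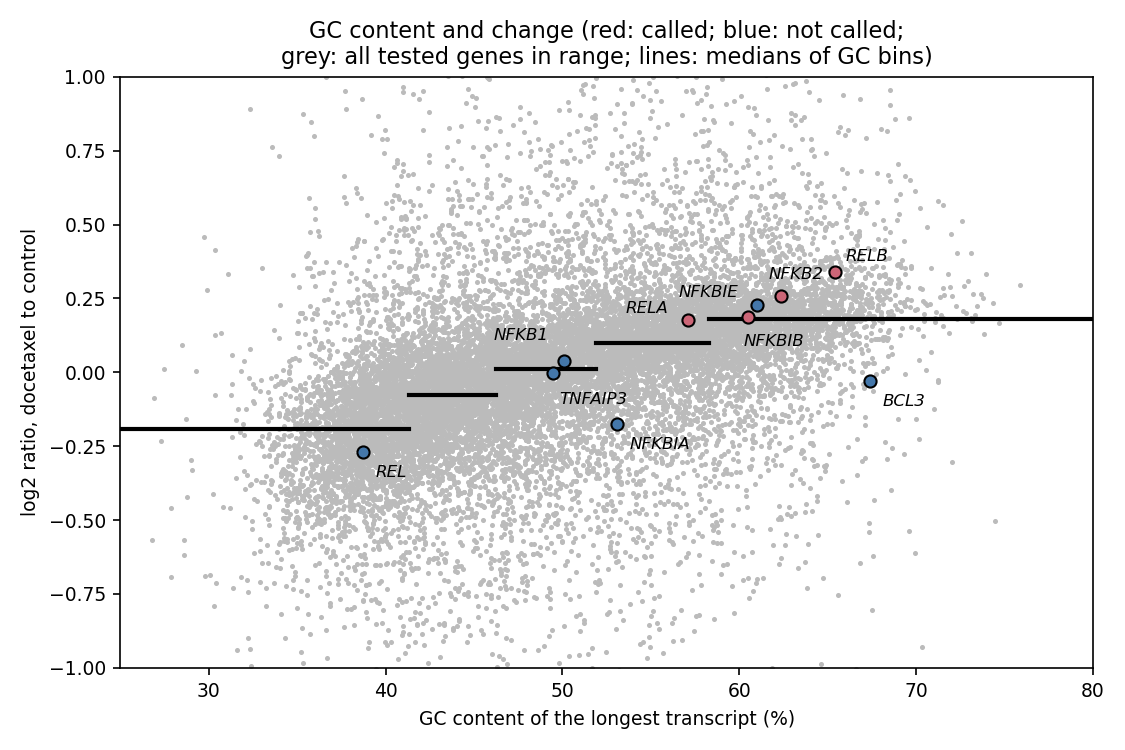
Log2 ratio (vertical axis, shown from -1 to 1) against the GC content of the longest transcript in percent (horizontal axis) for all tested genes in range (grey), with the medians of the GC bins as black lines and the 10 genes as circles, red where called and blue where not. The 4 called genes lie at 57.1% to 65.4% GC, on or above the black lines, and BCL3 (67.4%) and NFKBIA (53.1%) lie under them.

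Levels were compared between genes per kilobase, as TMM-scaled CPM divided by the gene length in the deposited table. In control, NFKB2 was the most abundant at 23.4 ± 0.98 CPM per kilobase (SD, n = 3), followed by NFKBIB at 20.2 ± 1.3 and BCL3 at 16.7 ± 1.3. RELA and NFKBIA came next at 10.1 ± 0.2 and 9.88 ± 0.62, and their libraries overlapped. RELB and NFKBIE, at 4.56 ± 0.37 and 4.21 ± 0.49, overlapped too. TNFAIP3 was at 1.51 ± 0.07, NFKB1 at 1.20 ± 0.19 and REL at 0.080 ± 0.031. The order depends on the length. With the longest GENCODE 29 transcript as length (chosen after the data were seen) NFKB2 remained first and REL last, NFKB1 stood at 4.61 and overlapped NFKBIE at 4.21, and NFKBIA at 21.5 overlapped NFKBIB at 21.3. The deposited length is 15679 bases for NFKB1 and 3394 for NFKBIA, and the longest transcripts have 4085 and 1558. On both scales the level per kilobase of NFKB2 exceeded that of NFKB1, and that of RELA exceeded those of RELB and REL, with no overlap between libraries.

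Upstream of the 10 genes, few ligands of the pathway were detected. Of 11 ligand genes 3 were tested, with 0 called by edgeR, DESeq2 or limma-voom and 0 past an unadjusted p of 0.05 by edgeR. TNF, the prototype inducer, had 1 read in all 6 libraries together and IL1A 15, and CD40LG had 0. The tested ligands with the smallest p were TNFSF10, which encodes TRAIL and had a log2 ratio of -0.34 (SE 0.24), IL1B at -0.75 (SE 0.61) and TNFSF14 at -0.11 (SE 0.21). Of 16 receptor genes 11 were tested, and 1 rose while 0 fell, a share of rises of 9.09% that is near the 9.14% of all tested genes, with 0 lower by DESeq2 or limma-voom and, by edgeR, 0 lower before adjustment at 0.05. TNFRSF12A, the receptor of the cytokine TWEAK, averaged 126.9 ± 8.7 CPM in control and 149.8 ± 7.4 CPM in docetaxel libraries (SD, n = 3). It rose 1.18-fold (adjusted p = 0.00095 by edgeR) and was not called with the offsets (log2 ratio 0.03, adjusted p = 0.82 by edgeR, and -0.013 with docetaxel replicate 1 also left out), where 0 receptors were called and 1 was lower before adjustment. TNFRSF1A, the main TNF receptor of epithelial cells, was abundant at 247 ± 4 CPM in control and had a log2 ratio of 0.06 (SE 0.04, adjusted p = 0.33 by edgeR), or -0.071 with the offsets. TNFRSF11A, which encodes RANK, was at -0.24 (SE 0.15). The median log2 ratio was -0.34 for the 3 ligands and 0.03 for the 11 receptors, beside 0.01 for all genes tested.

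Adaptors and ubiquitin ligases carry the signal from the receptors to the kinases. Of 19 tested, 6 rose and 4 fell, beside 9.14% and 7.82% of all tested genes, with a median log2 ratio of 0.02. RBCK1, which encodes the HOIL-1 subunit of the linear ubiquitin ligase, rose 1.18-fold (edgeR adjusted p = 0.00087), and TRAF2, an adaptor of TNF receptors, rose 1.17-fold (0.0009). UBE2N, the enzyme that joins lysine 63 ubiquitin chains, fell by 0.24 on the log2 scale (edgeR adjusted p = 0.0011). The genes that rose had a median GC content of 64.8% and those that fell 40.3%. With the offsets 1 of the 19, IRAK4, a kinase downstream of Toll-like and IL-1 receptors that was chosen after its values were seen, was called higher (adjusted p = 0.026 by edgeR) and 0 lower (2.31% and 1.81% of all tested genes), 1 gene being lower before adjustment. The IRAK4 call was lost without any 1 library other than docetaxel replicate 1 (adjusted p of 0.065, 0.16 and 0.073 without control replicate 1, 2 or 3, and 0.13 without docetaxel replicate 2 or 3). Without offsets, the list had 4 calls without control replicate 2 (3 higher and 1 lower) and 6 without docetaxel replicate 3 (4 higher and 2 lower).

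The IKK complex and the kinases around it gave 2 rises and 3 falls among 14 tested genes, where 9.14% and 7.82% of all tested genes rose and fell, with a median log2 ratio of -0.07. Scaling by library totals alone gave 2 rises and 5 falls. IKBKE, an IKK-related kinase, averaged 11.6 ± 1.4 CPM in control and 15.9 ± 0.93 CPM in docetaxel libraries (SD, n = 3), a rise of 1.37-fold (adjusted p = 0.0029 by edgeR). TANK, which binds IKBKE and its relative TBK1, fell by 0.41 on the log2 scale (edgeR adjusted p = 0.0072), a call lost without docetaxel replicate 3 (0.10), and TAB3, an adaptor of the kinase TAK1, fell by 0.34 (0.0073), a call lost without docetaxel replicate 2 (0.072). The core IKK kinases CHUK and IKBKB had log2 ratios of -0.11 (SE 0.08) and -0.02 (SE 0.07), and neither passed. MAP3K14, which encodes NIK, the kinase upstream of NFKB2 processing, rose 1.22-fold (edgeR adjusted p = 0.018), a call lost without control replicate 1 (0.061) or 3 (0.061), without docetaxel replicate 2 (0.10) or 3 (0.099), and with the offsets (0.43). CHUK, IKBKB and MAP3K14 were chosen after their values were seen. With the offsets 0 of the 14 were called by edgeR, with 1 higher and 1 lower before adjustment at 0.05. Without control replicate 1 there were 3 calls, and without docetaxel replicate 2 or 3 there were 2.

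Of 17 other tested regulators of NF-kB feedback 4 rose and 2 fell (9.14% and 7.82% of all tested genes), with a median log2 ratio of -0.04. The split between directions depended on the fit, with 1 higher and 3 lower when libraries were scaled by their totals alone or without docetaxel replicate 1, and 1 higher and 2 lower without control replicate 2 or docetaxel replicate 2. TNIP1, a ubiquitin-binding partner of A20, rose 1.15-fold (edgeR adjusted p = 0.0074), a call lost without docetaxel replicate 3 (0.086) and with the offsets (0.64). TAX1BP1 and RNF11, which are known to form a complex with A20, both fell. TAX1BP1 went from 114.0 ± 6.3 to 97.1 ± 3.4 CPM and RNF11 from 43.9 ± 3.1 to 34.7 ± 3.6 CPM (SD, n = 3 each), and their log2 ratios were -0.23 and -0.34 (edgeR adjusted p of 0.0013 and 0.0014). Both passed in all 14 alternative fits, and with the offsets they were the 2 members of this list called lower (log2 ratios of -0.22 and -0.24, edgeR adjusted p of 0.002 and 0.033), with 0 called higher and 1 higher before adjustment at 0.05. When 1 library was also left out, the offset call of TAX1BP1 was lost without control replicate 2 (0.058), and that of RNF11 without control replicate 2 (0.14) or 3 (0.24) or docetaxel replicate 2 (0.13) or 3 (0.22).

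Among 30 further target genes of NF-kB, 20 were tested and 2 rose while 0 fell, a share of 10% beside 9.14% of all tested genes. By edgeR 6 were higher and 1 was lower before adjustment at 0.05, while DESeq2 and limma-voom each called 1 higher and 0 lower, and edgeR with scaling by library totals called 1 higher and 1 lower. IL32, a proinflammatory cytokine, rose 2.45-fold from a low level, with 0.43, 1.50 and 1.02 CPM in control and 2.11, 2.75 and 2.44 CPM in docetaxel replicates 1 to 3 (edgeR adjusted p = 0.0045), and it also passed with the offsets (0.034). That offset call of IL32 was lost without control replicate 1 (0.19) or 3 (0.13) or docetaxel replicate 2 (0.11) or 3 (0.14). ICAM1, an adhesion receptor, rose 1.15-fold (edgeR adjusted p = 0.045), with groups that overlapped, and was not called without control replicate 1 (0.19) or 3 (0.13) or docetaxel replicate 2 (0.11) or 3 (0.31), or with the offsets (0.69). PLAU, the urokinase, had a log2 ratio of 0.91 (SE 0.34) at 0.76 CPM in control and missed the threshold (edgeR adjusted p = 0.065). The chemokine genes CXCL8 and CXCL1, which are classical targets, had 0 reads in all 6 libraries, where a count of 0 allows up to 3 counts per library, or 0.0720 to 0.0777 CPM from counting error alone. TNF, IL1A, CD40LG, CXCL8 and CXCL1 were too low to test and were chosen after their values were seen.

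**Figure D4:**
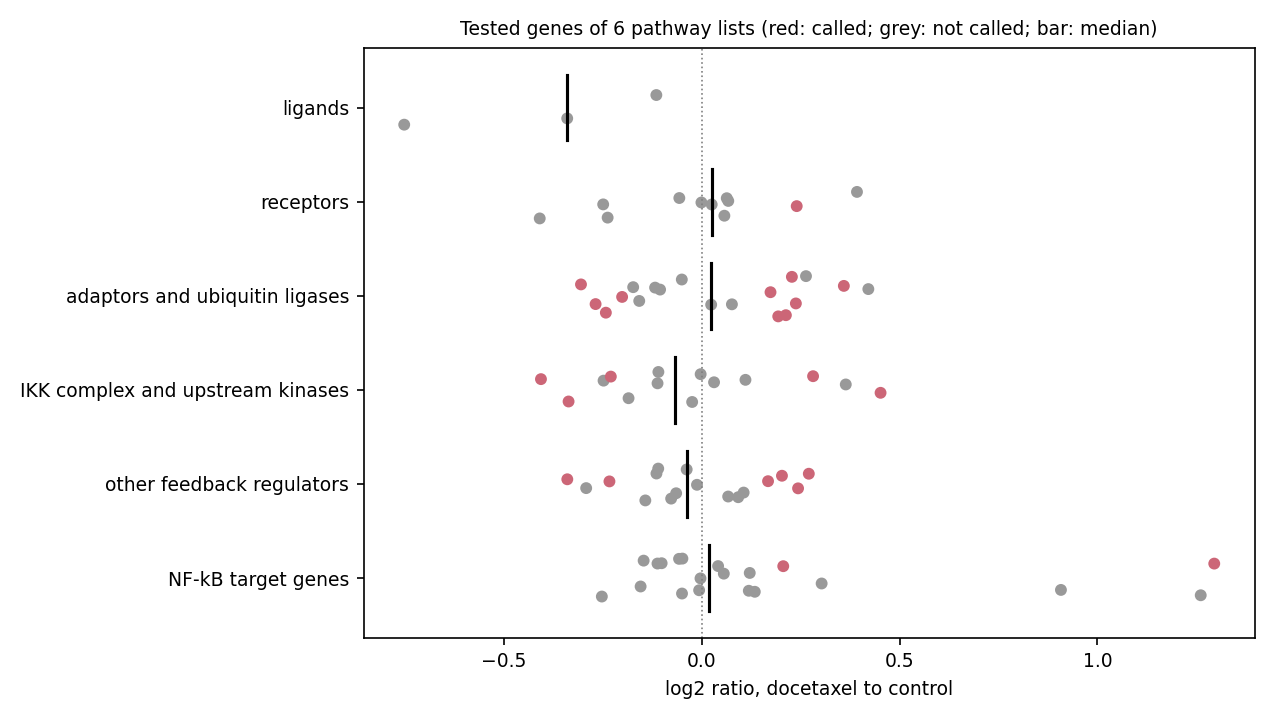
Log2 ratio, docetaxel against control (horizontal axis), of every tested gene in 6 lists of the NF-kB pathway (rows; vertical spread within a row carries no value), red where called and grey where not, with the list median as a bar. The list medians lie between -0.34 (3 ligands) and 0.03 (11 receptors), and the adaptors, kinases and feedback regulators hold calls in both directions.

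The genes whose profile over the 6 libraries was most like that of NFKB2 were SIRT2, RHBDD3 and CAVIN1. Likeness was the root mean square difference between centred log2 CPM values, which was 0.015, 0.017 and 0.017, over 10357 genes with at least 5 CPM on average. Their log2 ratios were 0.24, 0.25 and 0.26, beside 0.26 for NFKB2. Likeness over the 6 libraries includes the difference between groups, so close log2 ratios follow from the choice of these genes. Their GC content was 60.1%, 66.6% and 59.9%, beside 62.4%. All of them belong to the bin with the highest GC content, where 31.6% of genes were called higher and 0.122% lower.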

How the data were processed

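The deposited values are raw counts of reads for 78932 Ensembl identifiers in 6 libraries, in 1 table that also holds gene lengths. The authors' counts came from featureCounts 2.0.1 on GRCh38, with MultiQC 1.11 reports, per the submitters' processing notes. Aligner, annotation release, strand setting and handling of shared reads were not given in the sources used here. Columns were matched to samples by library name.

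Gene symbols were looked up by Ensembl identifier (61481 rows matched, and all 139 list genes), coordinates, overlaps and the GC content of the longest transcript from GENCODE release 29 (GRCh38), and promoters from RefSeq (GRCh38.p14). Genes were kept by filterByExpr (18040, holding 99.9% of counts) and compared with edgeR 4.0.16 in R 4.3.3 (TMM, estimateDisp, robust glmQLFit, glmQLFTest, two-sided, Benjamini-Hochberg adjustment over all genes kept, calls at 0.05). There was 1 comparison. Standard errors were set so that they give the p of the test. Script functions were tested on simulated data.

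To make the offsets, the log2 CPM of a gene minus its mean over libraries was smoothed in every library against GC content and log2 gene length (loess, span 0.5, 10430 genes with at least 5 CPM). Genes without GC content (9.0% of those tested) got none. Other alternatives were scaling by RLE or by library totals, limma-voom (limma 3.58.1), DESeq2 1.42.0, no filter, a filter of 1 CPM in 3 libraries, a replicate block and leaving out each library. Added after the data were seen were transcript length for levels and the offsets with 1 library left out. Within groups, libraries differed beyond sampling noise (Poisson index 4.92 to 12.7). The confidence intervals use the standard errors of the edgeR test, so they include how far these libraries differ, which may be technical. The limits given for counts of 0 cover counting error only.

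Named were all 10 genes, the 3 genes with the smallest p in each of 6 pathway lists, and the 3 genes most like the member with the smallest p. Where another gene is named, the text says that it was picked with its values known or was in a count of 5 or fewer. The members and lists were chosen with earlier results of these data known.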

Additional observations from a re-analysis of the deposited data

How the results depend on the processing

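Over 14 alternative fits, 4 genes rose under both other filters on low counts and without docetaxel replicate 3. RLE scaling, DESeq2 and limma-voom called 3 higher, library-size scaling and the replicate block 2, and GC and length offsets 0, with 2 lower. Leaving out 1 library gave 1 to 4 higher and 0 lower, and with offsets 0 higher and 0 to 2 lower. Deviations from the group means correlated across genes at -0.11, -0.13 and 0.07 between same-numbered libraries. Between libraries of unlike number the correlations ran from -0.09 to 0.18. With 3 libraries per group this cannot exclude a shared culture or day. The replicate block called 1283 genes higher and 1106 lower, against 1649 and 1410 without it.

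Over all genes, library-size scaling called 1096 higher and 1866 lower, the offsets 416 and 327, and fits without 1 library 990 to 1397 and 740 to 1841. With offsets 0 receptors, 1 adaptor, 0 kinases, 2 feedback regulators and 1 target were called. RLE scaling, DESeq2, limma-voom and the replicate block called 1 target in place of 2. Without 1 library 4 to 11 adaptors, 2 to 6 kinases, 3 to 6 feedback regulators and 1 to 2 targets were called.

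Signs changed in 5 genes without a call and, only with offsets and 1 library left out, in NFKBIB. NFKB1 ran from -0.086 to 0.13, BCL3 from -0.072 to 0.039 and TNFAIP3 from -0.051 to 0.018 without 1 library, and TNFAIP3 was at 0.00036 by limma-voom. With offsets and control replicate 2 left out, NFKB1 was at -0.074, REL at 0.080, NFKBIB at -0.0025 and NFKBIE at -0.0039. With offsets and docetaxel replicate 2 left out, NFKBIB was at -0.023, NFKBIE at -0.019 and TNFAIP3 at 0.0023. Also with offsets, TNFAIP3 was at 0.012 when control replicate 1 or docetaxel replicate 3 was dropped, and TNFAIP3 and NFKBIB were at 0.0035 and -0.0017 when control replicate 3 was. REL then stood at 0.15 without control replicate 1 and at 0.0069 without docetaxel replicate 1. The cause of the sign changes was not tested. Coding length from RefSeq proteins was not run, because no protein table was used here.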
